A study of Mus musculus with 15 samples.

Results

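To ask how cargo mRNA altered M2-like macrophages, IRF5-NP and eGFP-NP libraries carrying the same replicate number were compared. Mouse bone marrow-derived macrophages were grown from femoral marrow progenitors in M-CSF. By the labels every library in this comparison had 4 days in 20 ng/mL IL4, and so the same cytokine background. The labels also give 1 µg of nanoparticles for 1 h. The cargo was either IRF5 mRNA (IRF5-NP) or mRNA of the green fluorescent protein eGFP (eGFP-NP, the control). The methods of the study give another amount, stated as mRNA, and which amount holds for these samples is not settled. They also state that IRF5 particles carried mRNA of the kinase IKKβ and some eGFP mRNA, and that all cargo mRNA was codon-optimized. By the methods, conditioning began before the particles. Strongly transfected cells were sorted afterwards and kept in low-dose IL-4 before RNA was taken. The cargo difference is therefore that of the IRF5 and IKKβ mixture against eGFP alone. Strain, sex and age of the mice were not given in the sources used here.

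The replicate numbers 1, 2 and 4 exist in both groups and gave 6 of the 15 libraries of the series. Numbers 1 and 2 (4 libraries) had 9 to 18 raw counts of Col1a2, the type I collagen chain made by fibroblasts, whereas number 4 (2 libraries) had 4529 in IRF5-NP and 15576 in eGFP-NP. The numbers were therefore treated as 2 strata, fibroblast-poor and fibroblast-rich. A remaining eGFP-NP library, number 3, has no IRF5-NP partner and served only as a substitute control.

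IRF5 is a transcription factor that lies downstream of Toll-like receptors and MyD88 and is activated by phosphorylation through IKKβ. It is known for driving inflammatory cytokine genes in macrophages of the classically activated (M1) kind, and it acts beside NF-κB on many of their promoters. Interferon-stimulated genes form a neighbouring programme, in which IRF7, itself interferon-induced, amplifies the response. IL-4, in contrast, signals through STAT6 and induces alternative (M2) genes such as Chil3, Retnla and Mrc1. Macrophages also secrete C1q, the recognition molecule that starts the classical complement pathway, which is built from chains encoded by C1qa, C1qb and C1qc.

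Expression was read as NanoString nCounter probe counts of 754 genes. A gene was taken as above background in a library when its count exceeded the mean plus 2 SD of the 8 negative control probes. Gene totals were 1417820 to 1524232 in the 4 fibroblast-poor libraries, 738305 in eGFP-NP 4 and only 266169 in IRF5-NP 4, although the positive control probes of IRF5-NP 4 were the brightest of the 6 (geometric mean 2412). IRF5-NP 4 therefore stood apart, and every number 4 result rests on it. All 11 fibroblast markers were above background in both number 4 libraries (5.08% of the counts in IRF5-NP, 6.17% in eGFP-NP) and at most 1 of 11 was in any library of numbers 1 and 2. The 16 macrophage markers took 25.0% to 26.2% of the counts in numbers 1 and 2, but 9.49% and 10.6% in IRF5-NP 4 and eGFP-NP 4. The labelled cell type was thus met by its markers in every library, with 14 or 15 of 16 above background, and number 4 in addition held fibroblast transcripts. No lymphocyte (3) or endothelial (2) marker was above background in any of the 6. Fewer cells of a type and less RNA per cell cannot be told apart in bulk RNA.

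How far libraries of 1 group differ sets the scale for the cargo differences. Between IRF5-NP 1 and 2, 1 gene differed by at least 2-fold, and between eGFP-NP 1 and 2 none of 754 did. Over genes with at least 40 counts in both libraries together, eGFP-NP 1 and 2 agreed within sampling noise (chi-square per degree of freedom 1.09, p = 0.0817, but p = 0.0162 with a minimum of 100 counts), and they were summed and counted as 1 sample. IRF5-NP 1 and 2 were close as well, at 1.63 per degree of freedom, and exceeded sampling noise. By contrast, 295 to 320 genes differed by 2-fold between a library of numbers 1 or 2 and one of number 3 or 4 of the same cargo. The study's figure legend calls its samples biologically independent, but gives a number of samples that these groups do not match. The labels do not say that replicates came from separate cultures. The p-values therefore measure the spread between these libraries, which may be technical.

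**Figure D1:**
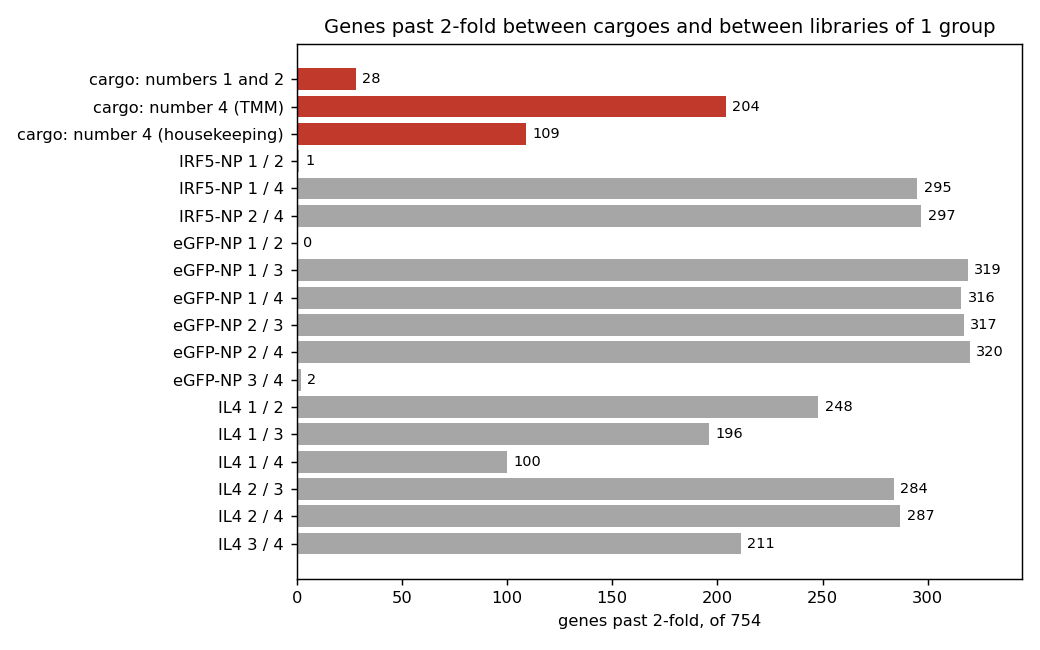
Bars give the number of genes, of 754, that differed by at least 2-fold with the higher library above background, between IRF5-NP and eGFP-NP of the same number (red; both numbers had to pass for numbers 1 and 2) and between 2 libraries of 1 group (grey). Among nanoparticle libraries of 1 group, the closest pairs had 0 to 2 genes. Pairs that join fibroblast-poor and fibroblast-rich ones had 295 to 320. The cargo counts of 28 and 204 sit between these. Pairs of IL4 libraries, without nanoparticles, had 100 to 287, a range that holds 204.

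In the test over all numbers, with the stratum as a block, IRF5-NP differed from eGFP-NP at 2 genes of 754, or 0.265%, both lower in IRF5-NP. Cd34, a sialomucin of haematopoietic progenitors and endothelium, had 217, 200 and 68 counts in IRF5-NP 1, 2 and 4 and 1050, 1092 and 693 in eGFP-NP 1, 2 and 4. Every IRF5-NP library lay below every eGFP-NP library, also after scaling, and Cd34 fell by 2.48 ± 0.32 SE on the log2 scale (edgeR quasi-likelihood test, Benjamini-Hochberg adjusted p = 0.0130). Within the numbers its log2 differences were -2.29, -2.32 and -2.64 (-2.19, -2.18 and -1.79 under housekeeping scaling). Kcnq1ot1, a long noncoding RNA of an imprinted locus, had 35, 27 and 19 counts in IRF5-NP against 148, 166 and 104 in eGFP-NP. Among IRF5-NP only number 1 exceeded background, whereas all 3 eGFP-NP libraries did, and it fell by 2.12 ± 0.29 SE (edgeR adjusted p = 0.0130). With the dimmer library set at its background, Kcnq1ot1 was at least 5.41-fold lower in number 2 and at least 1.99-fold lower in number 4 (at least 1.10-fold under housekeeping scaling), so the fitted size rests partly on counts below background. No gene passed in the other direction in this fit. At an unadjusted p under 0.05 the same edgeR fit gave 105 genes (13.9%), of which 37 (4.91%) were higher and 68 (9.02%) lower. Neither call held without the block, where edgeR called 0 genes, nor with eGFP-NP 1 and 2 kept as separate samples (0 genes, adjusted p = 0.0785 for each). The number and direction of the calls depended on the handling of the libraries and on the scaling. With IRF5-NP 1 and 2 also summed edgeR called 16 genes, 9 higher and 7 lower, and DESeq2 called 14, of which 4 were higher. Under housekeeping scaling edgeR called 7 genes, 6 higher in IRF5-NP (Irf7, Isg15, C1qa, C1qb and C1qc among them) and 1 lower. Cd34 was the lower one, at -2.04, and Kcnq1ot1 did not pass (-1.70, edgeR adjusted p = 0.303).

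The gene of the cargo itself was not higher in IRF5-NP. Irf5 had 2313, 2096 and 205 counts in IRF5-NP 1, 2 and 4 and 2495, 2645 and 1046 in eGFP-NP. Each IRF5-NP value was the lower of its pair, with log2 differences of -0.14, -0.22 and -1.66, and the fitted log2 difference was -0.85 ± 0.45 SE (edgeR adjusted p = 0.433). The delivered message was codon-optimized, and whether the panel's Irf5 probe binds it was not tested, so these counts do not check the cargo labels. Ikbkb, which encodes IKKβ, was not among the genes analysed here. Across the 13 genes of the IRF5 and NF-κB pathway in the table, the median log2 difference was -0.18 in numbers 1 and 2 and -0.40 in number 4, beside 0.02 and -0.41 for all genes. None of the 13 was past 2-fold in numbers 1 and 2. In number 4 the receptor gene Tlr2 was higher (64 against 43 counts, log2 difference 1.23), whereas Irf5, Nfkb1 (179 against 1139, -1.98) and Tnfaip3, the feedback inhibitor A20 (68 against 222, -1.01), were lower. The count of 1 higher and 3 lower stands beside 3.45% and 23.6% of all genes. Under housekeeping scaling the list had 2 higher and 1 lower, beside 8.89% and 5.57%, with a median of 0.46 (0.44 for all genes), and Irf5 (-0.80) and Tnfaip3 (-0.16) were not past 2-fold.

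The fibroblast-poor stratum held 28 genes past 2-fold in both number 1 and number 2 (3.71% of 754), with 11 higher (1.46%) and 17 lower (2.25%) in IRF5-NP. With 1 library per cargo and number this is a description without a test. Chemokine, interferon and complement genes stood on the higher side. Those on the lower side included Top2a, Birc5, 2810417H13Rik, Itga4, Itgal, Ccr2 and Chil3. By far the largest of all was Ccl5, the T cell and monocyte attracting chemokine RANTES. It had 11099 and 10394 counts in IRF5-NP 1 and 2 and 101 and 111 in eGFP-NP 1 and 2. These are 105-fold and 99.1-fold differences (log2 6.72, 95% counting interval 6.47 to 7.05, and 6.63, 6.39 to 6.94). Intervals of this kind cover counting error only.

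Number 4 had the opposite order for Ccl5, 406 counts with IRF5-NP against 1873 with eGFP-NP (log2 -1.52, and -0.66 under housekeeping scaling). The fitted log2 difference over the 3 numbers was consequently 2.75 ± 2.68 SE, and it did not pass (edgeR adjusted p = 0.618). eGFP-NP 3, which is also fibroblast-rich, had 2184 counts and gave -1.48 as the control. Fibroblast-rich eGFP-NP libraries were thus much higher in Ccl5 than fibroblast-poor ones, whereas IRF5-NP ran the other way. The part of fibroblast content in this was not tested.

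**Figure D2:**
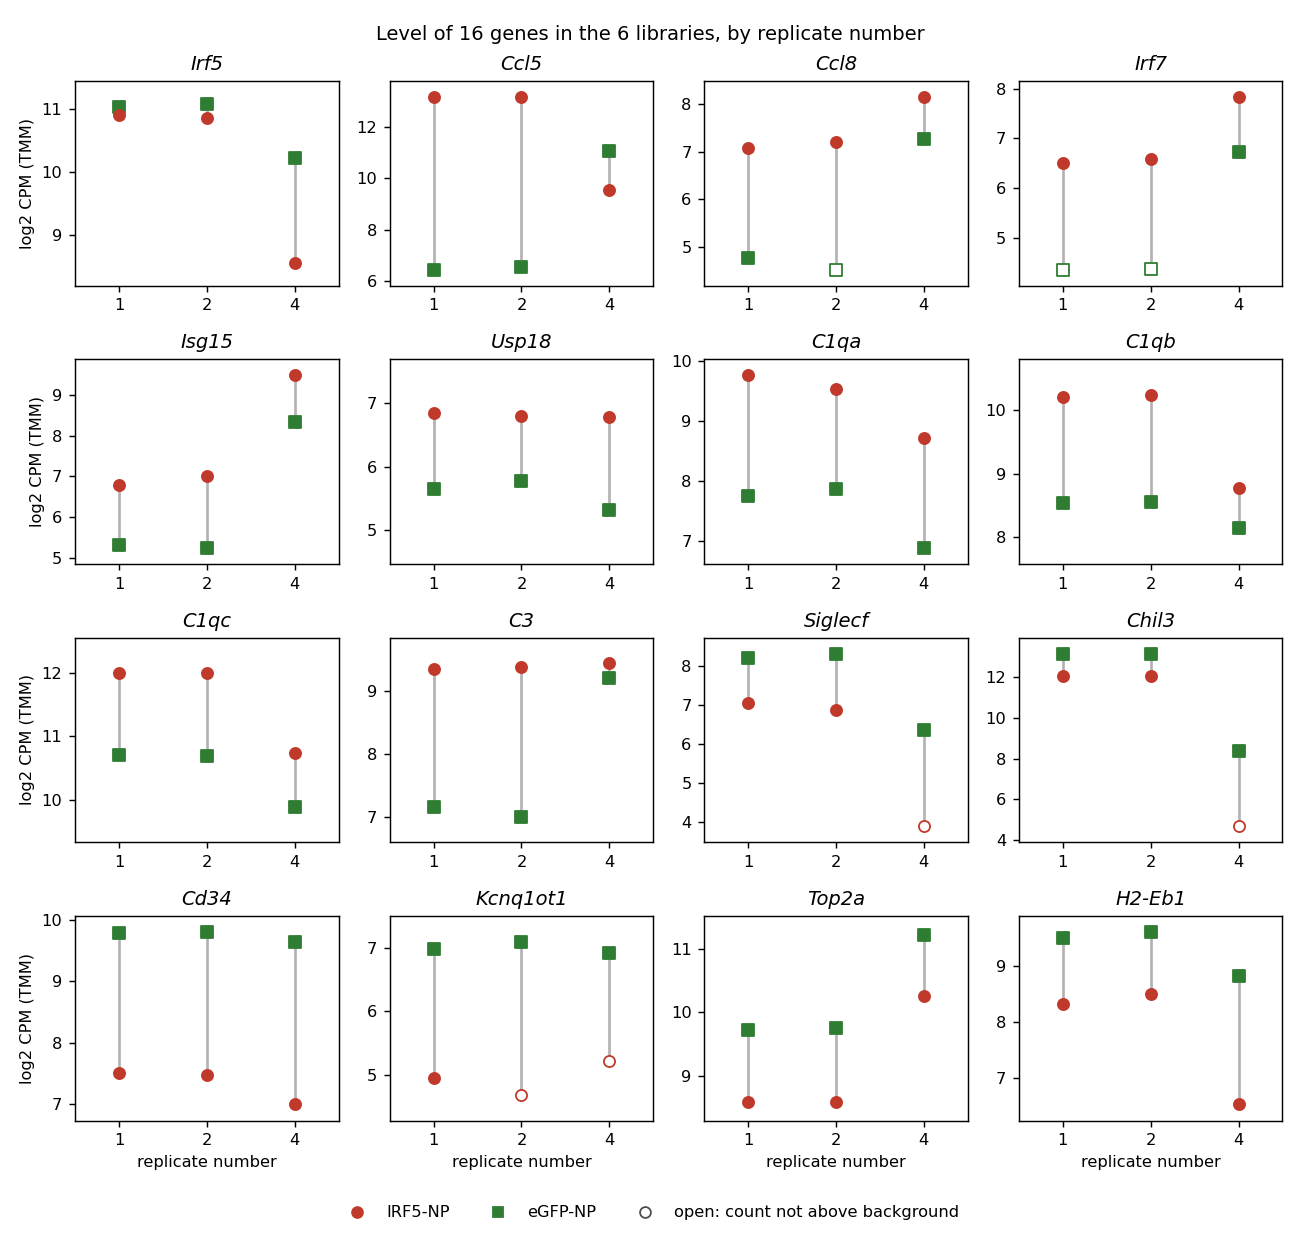
Levels (log2 CPM with TMM scaling) of 16 genes in the 3 IRF5-NP (red circles) and 3 eGFP-NP libraries (green squares) by replicate number, with a grey line joining each same-numbered pair and open symbols for counts not above background. Cd34 is lower in IRF5-NP by 2.29 to 2.64 in every number, Irf7, Isg15, Usp18 and C1qa are higher in every number, and Ccl5 turns direction in number 4.

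Ccl8, a monocyte chemoattractant also counted among M2 genes, had 162 and 164 counts in IRF5-NP 1 and 2 against 30 and 26 in eGFP-NP, where number 2 was not above background. The log2 difference was 2.32 in number 1, and in number 2 Ccl8 was at least 5.81-fold higher. In number 4 it had 152 against 133 counts, which after scaling is a log2 difference of 0.87 (1.73 under housekeeping scaling), and the edgeR log2 difference of 1.77 ± 0.43 SE did not pass (adjusted p = 0.175). Cxcl10, an interferon-induced chemokine, had 30 and 29 counts against 13 and 13, of which only that of IRF5-NP 2 was above background. Of the 33 chemokine ligands in the table, 2 were past 2-fold in numbers 1 and 2, namely Ccl5 and Ccl8, both higher (1.46% of all genes were). Their median log2 difference there was -0.01, beside 0.02 for all genes.

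Interferon-stimulated genes were represented by 17 members, 12 of them above background somewhere, and 3 of the 17 were past 2-fold in numbers 1 and 2, all higher in IRF5-NP, beside 1.46% of all genes. These were Irf7, Isg15 and Usp18. In number 4 the same 3 were higher past 2-fold, beside 3.45% of all genes, and 2 others were lower, beside 23.6%. These were Irf1, named after its values were seen, and Mx1, whose bound is at least 1.32-fold since IRF5-NP 4 was below background. Irf7, the interferon-induced regulator, had 107, 106 and 122 counts in IRF5-NP against 22, 23 and 91 in eGFP-NP. Since eGFP-NP 1 and 2 were not above background, its differences there are at least 3.57-fold and at least 3.76-fold, and in number 4 the log2 difference was 1.10. Isg15, a ubiquitin-like modifier, had 132, 144 and 385 counts against 45, 44 and 282, and Usp18, the protease that removes it, had 137, 125 and 59 against 57, 65 and 33. After scaling the groups did not overlap for Usp18 but did for Irf7 and Isg15, which were high in both libraries of number 4. On the log2 scale the differences were 1.48, 1.77 and 1.13 for Isg15 and 1.20, 1.03 and 1.48 for Usp18. None passed edgeR's adjusted threshold (Irf7 adjusted p = 0.131, Isg15 0.155 and Usp18 0.155).

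Of the 17 interferon genes in the table, 8 had positive differences in all 3 numbers, beside 117 of all 754 genes, and 1 had negative ones, beside 197 of 754. Under housekeeping scaling 11 were positive and 1 negative in all 3, beside 275 and 79 of all genes. In number 4 under that scaling 5 were higher past 2-fold and 1 lower, beside 8.89% and 5.57% of all genes. Mx1, an antiviral GTPase, was lower in IRF5-NP in all numbers (33, 39 and 10 counts against 59, 62 and 69). Transcripts of Ifnb1 were not above background in any of the 6 libraries. Over the 17 genes the median log2 difference was 0.46 in numbers 1 and 2 and 0.54 in number 4, beside 0.02 and -0.41 for all genes, and over the 12 above background it was 0.41 and 0.05 (0.53 and 0.90 under housekeeping scaling).

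Since chemokine and interferon genes were among the higher genes of the fibroblast-poor stratum, promoter sequence of those with an entry was read from RefSeq (GRCm38.p6). The core of the interferon-stimulated response element (GAAA, any NN, GAAA) and a κB form (GGG, any NNN, TTCC) were searched on both strands in the 250 bases before each start. The bases shown are those outside the annotated gene, 5′ to 3′ on the gene's strand, with the response element core in capitals. Ccl8 (chr11:82114935-82115184, plus strand) and Irf7 (chr7:141266500-141266674, minus strand) were taken by the naming rule, and Isg15 (chr4:156200819-156201068, minus strand) was added after its values were seen. Ccl5 is named only.
Isg15: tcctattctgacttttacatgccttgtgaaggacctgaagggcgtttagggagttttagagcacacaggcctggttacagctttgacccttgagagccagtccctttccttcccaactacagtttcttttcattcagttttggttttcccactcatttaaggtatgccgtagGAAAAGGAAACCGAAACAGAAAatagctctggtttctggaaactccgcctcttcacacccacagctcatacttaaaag
Irf7: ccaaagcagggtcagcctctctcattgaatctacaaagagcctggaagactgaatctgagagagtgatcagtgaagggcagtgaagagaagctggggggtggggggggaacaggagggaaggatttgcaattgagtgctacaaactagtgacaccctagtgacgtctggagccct
Ccl8: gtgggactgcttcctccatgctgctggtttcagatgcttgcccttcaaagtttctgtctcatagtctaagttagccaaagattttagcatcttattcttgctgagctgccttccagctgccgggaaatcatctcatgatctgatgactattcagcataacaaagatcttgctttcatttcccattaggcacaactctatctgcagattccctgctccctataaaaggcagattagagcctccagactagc
Isg15 held 3 overlapping matches of the response element core, the first starting 78 bases before the start of the gene, and neither of the other stretches held a match to either motif. Among all 32851 promoters of this length, 2.98% held the response element core and 4.65% the κB form. Of the 28 genes, 20 had an entry, and 2 of these held each motif (Isg15 and Mmp13 the first, Birc5 and Gata2 the second). A match describes letters only.

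Complement genes were higher in IRF5-NP in the fibroblast-poor stratum. Of 7 members in the table, 4 were higher past 2-fold in numbers 1 and 2, beside 1.46% of all genes, and 0 of 7 were lower, beside 2.25%. C1qa had 1042, 839 and 225 counts in IRF5-NP and 251, 282 and 101 in eGFP-NP. After scaling every IRF5-NP library lay above every eGFP-NP library. Its log2 differences were 2.02, 1.68 and 1.83 (edgeR 1.83 ± 0.34 SE, adjusted p = 0.0931, which did not pass). The partner chains were less even. C1qb had 1428, 1370 and 235 counts against 436, 457 and 244 (log2 1.68, 1.69 and 0.63), and C1qc had 4968, 4681 and 926 against 1989, 2021 and 821 (1.29, 1.32 and 0.86). C3, on which the complement pathways converge, had 782, 753 and 375 counts against 168, 155 and 511. In numbers 1 and 2 it was thus higher by 2.18 and 2.37, whereas in number 4 the log2 difference was 0.24. The list's median log2 difference was 1.31 in numbers 1 and 2 and 0.82 in number 4, and both were above those of all genes (0.02 and -0.41). In number 4, 1 of 7 was higher past 2-fold, beside 3.45% of all genes. Under housekeeping scaling 5 of 7 were, beside 8.89%, among them the 3 C1q chains and C3, at 2.68, 1.49, 1.72 and 1.10.

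Of 23 classical M1 cytokine and effector genes in the table, 14 were above background in at least 1 library. None of the 23 was past 2-fold in numbers 1 and 2, beside 3.71% of all genes, and their median log2 difference there was 0.05. In number 4 the median was 0.58, beside -0.41 for all genes, and 20 of 23 had a positive difference, beside 285 of all 754. There 1 was higher past 2-fold and 0 were lower, beside 3.45% and 23.6% of all genes. The other 9 of the 23 were not above background in any of the 6 libraries, and genes below background in both number 4 libraries had a median of 0.88 over the whole table. Under housekeeping scaling 8 were higher past 2-fold (8.89% of all genes were) and 0 lower (5.57%). Tnf had 159, 119 and 101 counts in IRF5-NP and 227, 257 and 102 in eGFP-NP, with log2 differences of -0.53, -0.99 and 0.66. Nos2, which encodes inducible nitric oxide synthase, had 27, 28 and 33 counts against 34, 39 and 35, above background in 4 of 6 libraries. Il6 was above background only in number 4, with 51 against 53 counts, and Il1b and Il12b were not above background in any of the 6 libraries. The 1 gene past 2-fold in number 4 with TMM scaling was Cd86, a costimulatory ligand (44 against 29 counts, log2 1.24). Tnf, Nos2, Il6 and Il1b were chosen after their values were seen.

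Genes that IL-4 induces went different ways. In all, 2 genes of 754 were past 2-fold in opposite directions in the 2 strata (0.265%), Ccl5 among them, and under housekeeping scaling 0 genes were. Chil3, a secreted chitinase-like protein, was lower in IRF5-NP in all 3 numbers, with 5084, 4874 and 13 counts against 10726, 10897 and 291. Its log2 differences in numbers 1 and 2, -1.10 and -1.05, lay close to the 2-fold limit, and under housekeeping scaling they were not both past it. Retnla had 238 and 228 counts against 123 and 139 in numbers 1 and 2 (log2 0.91 and 0.82). In number 4 it had 5 counts, below background, against 39. With IRF5-NP 4 set at its background, no direction can be given there. Serpinb2 was above background only in IRF5-NP 4 (54 counts against 17 in eGFP-NP 4), and Ccl11 only in eGFP-NP 4 (71 counts against 16). Of the 33 genes in this list, 2 were higher, Ccl8 among them, and 1 lower (Chil3) in numbers 1 and 2, beside 1.46% and 2.25% of all genes. In number 4, 2 were higher and 12 lower, beside 3.45% and 23.6%, and under housekeeping scaling 3 were higher and 7 lower, beside 8.89% and 5.57%. None of the 33 was called by edgeR.

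Of the 5 proliferation genes in the table, Top2a and Birc5 were lower past 2-fold in numbers 1 and 2, beside 2.25% of all genes. The 5 had a median log2 difference of -1.12 in numbers 1 and 2, beside 0.02 for all genes. Top2a, the topoisomerase of dividing cells, had 464, 434 and 663 counts against 1002, 1056 and 2095, and Birc5, which encodes survivin, had 87, 78 and 161 against 204, 197 and 436. Their log2 differences were -1.13, -1.17 and -0.97 for Top2a and -1.23, -1.20 and -0.75 for Birc5. All 5 were lower in IRF5-NP in every number with TMM scaling, beside 197 of all 754 genes, but under housekeeping scaling the median in number 4 was 0.11. None was called, the closest being Birc5 (edgeR adjusted p = 0.193).

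The naming rule took 4 more of the lower genes in numbers 1 and 2. Gata2, a progenitor transcription factor, had 21 and 15 counts in IRF5-NP, below background, against 68 and 66, at least 2.05-fold and at least 2.15-fold lower, and 75 against 169 in number 4 (log2 -0.48, and 0.37 under housekeeping scaling). Ccr2, the receptor for the monocyte chemoattractant CCL2, had 34 and 26 counts against 94 and 101. The log2 difference was -1.43 in number 1, and in number 2, where IRF5-NP was not above background, Ccr2 was at least 3.29-fold lower. In number 4 it had 16 counts, below background, against 20, and no direction can be given. Met, the receptor for hepatocyte growth factor, and Cyp1b1, a cytochrome P450, had log2 differences of -1.20 and -1.60 and of -1.28 and -1.49. In number 4 they were -0.90 and -0.98, and -0.05 and -0.12 under housekeeping scaling.

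**Figure D3:**
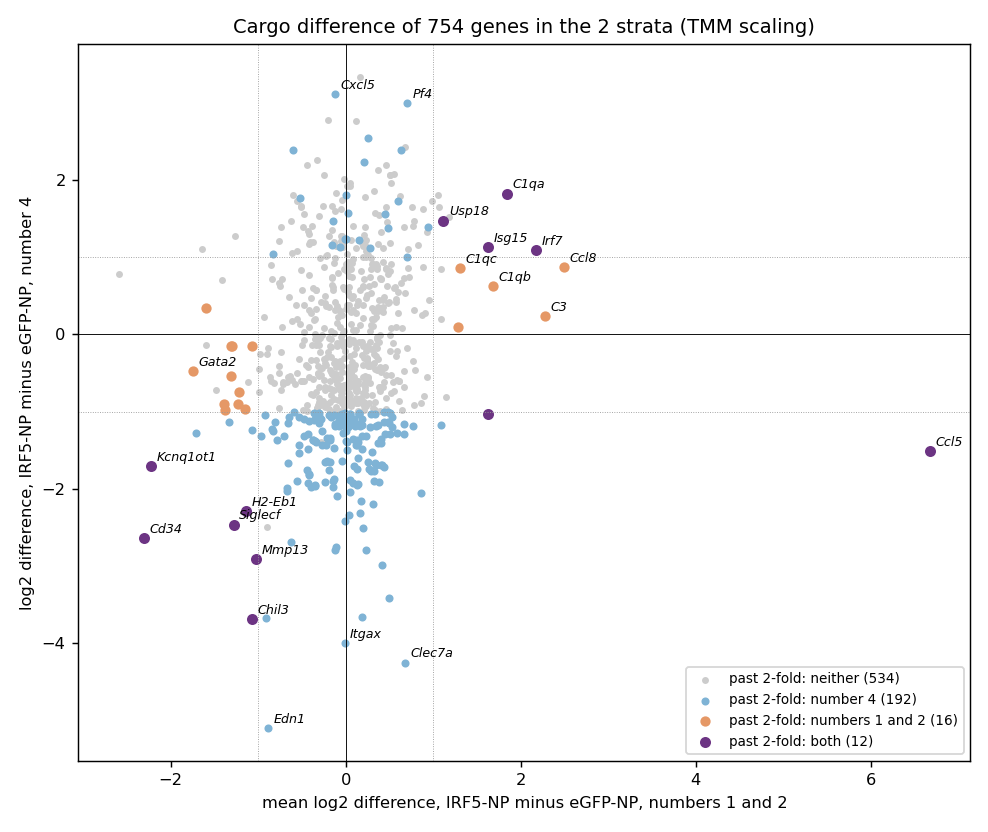
Each point is 1 of 754 genes, with its mean log2 difference (IRF5-NP minus eGFP-NP, TMM scaling) in numbers 1 and 2 on the horizontal axis and in number 4 on the vertical axis, and dotted lines at a 2-fold difference. Of the 12 purple points 10 lie in the same direction in both strata, 2 lie in opposite directions, Ccl5 among them, and most of the 192 genes past 2-fold in number 4 alone lie below 0.

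The fibroblast-rich pair differed more widely. In number 4, 204 genes were past 2-fold (27.1%), of which 26 were higher (3.45%) and 178 lower (23.6%) in IRF5-NP. This split followed the scaling. With the geometric mean of 21 housekeeping genes in place of TMM, 109 genes were past 2-fold (14.5%), 67 higher (8.89%) and 42 lower (5.57%), and 68 genes passed under both. The choice moved all number 4 log2 differences up by 0.85 (median), against 0.10 and 0.15 in numbers 1 and 2. Low counts also moved with the direction. The 204 genes below background in both number 4 libraries had a median log2 difference of 0.88, and the 437 above background in both had -0.72. IRF5-NP 4 was not above background for 35 of the 178 lower genes.

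The genes highest in IRF5-NP relative to eGFP-NP in number 4 included chemokines. Cxcl5, a neutrophil attractant that stromal cells also make, had 2323 counts in IRF5-NP 4 and 428 in eGFP-NP 4 (log2 3.12, 95% counting interval 2.98 to 3.28) and was below background in numbers 1 and 2. Pf4, platelet factor 4, had 256 against 50 counts (3.00, 2.60 to 3.51), and in numbers 1 and 2 it was higher by 0.58 and 0.82. Cxcl3 had 249 against 67 counts (2.55). These 3 were higher under housekeeping scaling too, by 3.98, 3.85 and 3.40. Of the 33 chemokine ligands, 6 were higher past 2-fold in number 4, beside 3.45% of all genes, and 3 lower (Ccl5, Ccl11 and Cxcl14), beside 23.6%. Under housekeeping scaling 10 were higher, beside 8.89%, and 0 lower, beside 5.57%.

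On the lower side in number 4, Edn1, which encodes the vasoconstrictor endothelin-1, had 17 counts in IRF5-NP 4 against 1003 in eGFP-NP 4, at least 19.2-fold lower (at least 10.6-fold under housekeeping scaling). Clec7a, the β-glucan receptor dectin-1, had 30 against 958 (at least 18.4-fold), and Itgax, the integrin CD11c, had 12 against 337 (at least 6.46-fold). In numbers 1 and 2 the last pair looked different. Clec7a was higher there in IRF5-NP, with 4184 and 3935 counts against 2635 and 2584, and Itgax had log2 differences of 0.06 and -0.09. Pparg, a nuclear receptor of the M2 programme, had 34 counts against 605 in number 4 (log2 -3.43), yet 589 and 528 against 396 and 417 in numbers 1 and 2 (0.54 and 0.45).

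Of 21 antigen presentation genes in the table, 10 were past 2-fold in number 4, all lower in IRF5-NP, beside 23.6% of all genes. Under housekeeping scaling 4 were lower, beside 5.57%, and 1 was higher, beside 8.89%. Cd74, the invariant chain of MHC class II, had 819 against 6726 counts (log2 -2.35), and H2-Aa, a class II α chain, had 338 against 2080 (-1.93). In numbers 1 and 2 Cd74 differed by only 0.06 and 0.02. H2-Eb1, a class II β chain, was lower past 2-fold in all numbers, with 384, 411 and 49 counts against 857, 958 and 394 (-1.18, -1.10 and -2.30). Cross-binding among the similar H2 genes was not tested.

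Among cell type markers, macrophage markers had a median log2 difference of -0.66 in number 4 (0.20 under housekeeping scaling). For all genes it was -0.41 (0.44). The 15 macrophage markers above background in any library had -0.66 (0.20), beside -0.64 (0.21) for all such genes, so they followed the whole table. Fibroblast markers had a median of -1.03 (-0.17), with 6 of 11 lower past 2-fold, beside 23.6% of all genes. These included Fn1 (1952 against 10178 counts) and Tnc (244 against 1522). Under housekeeping scaling 1 of 11 was lower, beside 5.57%. Within the macrophage list Cd14, the lipopolysaccharide co-receptor, was higher (931 against 439 counts, log2 1.77) and the protease gene Ctss lower (2621 against 17492, -2.05). The part of cell make-up in the number 4 differences was not tested. With eGFP-NP 3 as the control in place of eGFP-NP 4, 183 genes were past 2-fold, 171 of them shared with the 204.

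**Figure D4:**
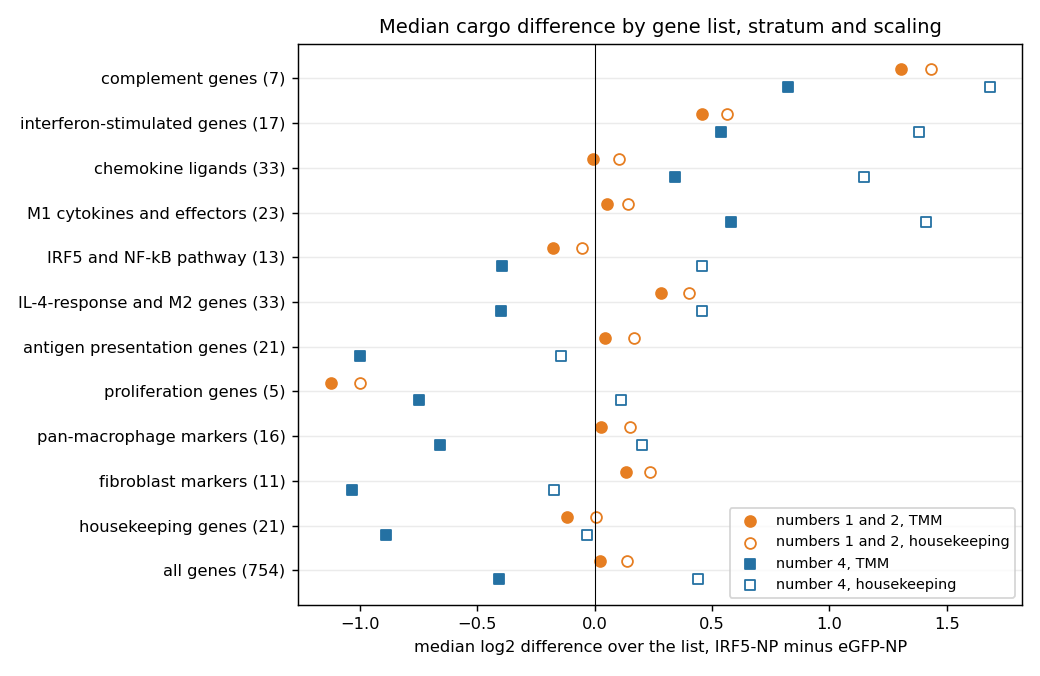
Median log2 difference (IRF5-NP minus eGFP-NP) over the members of each gene list, with the number of members in the table in brackets, for numbers 1 and 2 (circles) and number 4 (squares), filled for TMM and open for housekeeping scaling. Complement genes have positive medians in all 4 settings (0.82 to 1.68), and in number 4 every open square lies right of its filled one.

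What both strata shared was small. In all, 10 genes were past 2-fold in the same direction in numbers 1, 2 and 4 (1.33% of 754), which is 35.7% of the 28 genes of numbers 1 and 2 and 4.90% of the 204 of number 4. The 4 higher in IRF5-NP were Usp18, Isg15, C1qa and Irf7, and the 6 lower were Cd34, Kcnq1ot1, H2-Eb1, Siglecf, Chil3 and Mmp13. For Kcnq1ot1 and Siglecf the number 4 difference is not established as 2-fold, since IRF5-NP 4 was below background and the bounds there are at least 1.99-fold and at least 1.34-fold lower. Siglecf, a sialic acid binding lectin of eosinophils and some macrophages, had 159, 131 and 7 counts against 344, 386 and 70. Mmp13, an interstitial collagenase, had 2195, 2046 and 62 against 4373, 4537 and 766, log2 differences of -1.02, -1.04 and -2.92. Under housekeeping scaling 11 genes met the rule, 9 of them higher, and 6 were shared: Cd34, Siglecf, C1qa, Irf7, Isg15 and Usp18. For Siglecf, with IRF5-NP 4 set at its background, no direction can be given in number 4 under that scaling. The 5 it added were C1qb, C1qc, C3, Ccl8 and Grn. Of the 28 genes of numbers 1 and 2, 25 had the same sign in number 4 with TMM scaling and 19 with housekeeping scaling. In number 4, 285 of all 754 genes were positive with TMM scaling and 522 with housekeeping scaling. These counts therefore depend on the scaling.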

How the data were processed

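RNA was hybridised to the Myeloid Innate Immunity panel, and the authors deposited raw probe counts, whole numbers with no normalization, for 754 genes, 6 positive and 8 negative control probes in 15 libraries. The methods state that the study itself scaled by housekeeping genes and used t-tests with Benjamini-Yekutieli rates. Here groups and numbers came from the labels. Counts of eGFP-NP 1 and 2 were summed, and the resulting 5 libraries were fitted in edgeR 4.0.16 (R 4.3.3) with TMM scaling, no filter, and the stratum (numbers 1 and 2, or 4) as a block. Benjamini-Hochberg values were taken over 754 genes, two-sided, at a threshold of 0.05, and the fit was tested on simulated data. Scaling moved the differences of number 4 more than those of numbers 1 and 2. IRF5-NP 4 had 266169 gene counts against 738305 in eGFP-NP 4, with a background of 32.4 counts. The part of depth in this shift was not tested. Differences within a number are of log2 CPM (prior count 2), and a gene was past 2-fold when this was at least 1 in size with the higher library above background. Bounds written as "at least" set the dimmer library at its background.

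Libraries were paired by the number in their labels. Deviations from the group means over 754 genes correlated at 0.803, 0.799 and 0.839 for same-numbered libraries (numbers 1, 2 and 4). Numbers 1 and 2 could not be told apart (crossed 0.786 and 0.798). Number 4 was opposite to both (-0.821 to -0.813), which centring on the group means largely fixes. These values restate the split between the strata. They cannot show that IRF5-NP 4 belongs with eGFP-NP 4 rather than eGFP-NP 3, which was left out. The labels do not say what a number marks.

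Members, lists and the naming rule were chosen with earlier results of these data known. Named were Irf5, Ccl5, Serpinb2, Ccl11 and Retnla, the called genes, the largest differences per stratum (6 each way in numbers 1 and 2, 4 each way in number 4), genes past 2-fold in all numbers or in opposite directions, and up to 4 examples per list. Some genes are not reported here. Ifnb1, Il12b, Cxcl10 and Cxcl14 were named after their values were seen. Dendritic cell (6 in the table), mast cell and basophil (6) and granulocyte (11) markers had 0 to 1, 0 to 2 and 2 to 3 members above background per library.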

Additional observations from a re-analysis of the deposited data

Results flagged for a closer look

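For 7 named genes the computed cargo difference ran one way in both number 1 and number 2 and the opposite way in number 4. This held under TMM and under housekeeping scaling. The 95% counting interval of each difference left out 0, and a library was above background in both number 1 and number 4. Named genes whose signs also turned without meeting these conditions are left out. The difference between strata was not tested, since number 4 has 1 library per cargo. Number 4 minus the mean of numbers 1 and 2, on the log2 scale, was -8.19 for Ccl5, -4.94 for Clec7a, -3.92 for Pparg, -2.93 for Retnla, -2.09 for Ctss, -1.67 for Cd84 and 2.29 for Cd14. Of these, Ctss and Cd84 had differences of at most 0.21 in size in numbers 1 and 2. Retnla and Clec7a (30 counts) were below the background of 32.4 counts in IRF5-NP 4, so their values are not exact sizes. With IRF5-NP 4 set at its background, Clec7a was at least 18.4-fold lower in number 4. For Retnla no direction can be given there.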

How the results depend on the processing

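The 2 calls of edgeR depended on how the libraries were handled. The count was 0 without the replicate block, 0 with eGFP-NP 1 and 2 separate and the block by number, 0 with limma on housekeeping-scaled values, 0 by the methods' t-test (Benjamini-Yekutieli or Benjamini-Hochberg, with 34 genes at an unadjusted p under 0.05) and 0 after subtracting the negative controls, an alternative chosen after seeing the data. It was 1 with genes above background in at least 2 libraries only and 1 with the MPLA and IL4 libraries in the same fit, 2 with DESeq2 size factors in edgeR, 7 with housekeeping scaling (6 higher), 14 with DESeq2 (4 higher) and 16 with IRF5-NP 1 and 2 also summed (9 higher). Leaving out 1 library gave 14 to 420 calls: 14 without IRF5-NP 1, 16 without IRF5-NP 2, 299 without IRF5-NP 4, 298 without eGFP-NP 4 and 420 without eGFP-NP 1-2. In the last 3 the spread rests on IRF5-NP 1 and 2, which are nearly identical, so these counts say nothing of stability. Cd34 was called in 10 of 17 alternatives (log2 -2.48 to -1.999) and Kcnq1ot1 in 8 (-3.91 to -1.28). Of the higher genes, C1qa, Irf7 and Isg15 were each called in 8 of 17, Ccl8 in 7 and C3 in 6. These tallies include the 3 fits that rest on IRF5-NP 1 and 2 alone and are no measure of stability. Leaving out a library turned the fitted direction of 16 of 54 named genes, with log2 ranges of -1.04 to 6.69 for Ccl5, -1.78 to 0.86 for Retnla, -3.83 to 0.67 for Clec7a, -2.98 to 0.49 for Pparg, -0.53 to 2.25 for Cd14, -1.01 to 0.17 for Cd84, -0.98 to 0.52 for Ccl11, -1.67 to 0.84 for Ccr2, -1.87 to 0.0260 for Cd74, -0.0168 to 1.77 for Cd86, -0.92 to 0.18 for Cdh11, -1.17 to 0.34 for Col12a1, -1.57 to 0.0299 for Ctss, -0.13 to 3.61 for Cxcl5, -1.21 to 0.42 for Fn1 and -1.46 to 0.32 for Sap130. Signs also turned without the replicate block for Retnla (0.81), Clec7a (0.50), Itgax (0.20), Ctss (0.13) and Cd84 (0.26), and by the methods' t-test for Retnla (0.48), Ctss (0.0507) and Cd84 (0.31). Ccl11 turned with housekeeping scaling (0.0248, and 0.14 in limma), and Retnla did so too (0.36 and 0.0145) as well as with eGFP-NP 1 and 2 separate (0.24) and with the background filter (0.22). None of these genes was called by edgeR in the reported fit.

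The 28 genes of numbers 1 and 2 became 25 to 34 under all alternatives, with 23 to 28 shared. The 204 of number 4 became 109 with housekeeping scaling, and 300 without the background requirement (119 higher, 181 lower). With background subtracted they became 189 (47 higher, 142 lower), of which only 114 were shared with the 204. The 10 genes past 2-fold in the same direction became 16 with background subtracted, and the 2 in opposite directions became 0 with housekeeping scaling, 1 with a prior count of 10 and 1 with background subtracted. The cause of these shifts was not tested. IRF5-NP 4 had the lowest gene total, 266169 counts, which limits the precision of number 4.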
